A study of Ictidomys tridecemlineatus with 31 samples.

Results

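Kidneys of 4 summer active (SA) and 5 spring dark (SpD) 13-lined ground squirrels (Ictidomys tridecemlineatus) were compared, 9 of the 31 animals with values in the kidney RNA-Seq table, with membership set by the hibernation state label alone. SA animals were warm-bodied and fattening in late summer. SpD animals had stopped using torpor and were warm-bodied, but remained in the hibernaculum, days to weeks after their last bout. The SA animals were K138 and K140 (males) and K139 and K141 (females), and the SpD animals were K3, K6, and K84 (females) and K9 and K130 (males). K137, a further SA female that the paper left out, entered no comparison here and is shown apart. The labels name no treatment and no genotype, and each sample carries its own animal number. Season and housing changed together between the states and cannot be told apart. All SA libraries came from the second of the study's sequencing experiments, whereas the first supplied K3, K6, and K9. Within experiment 2, therefore, the SA animals could be set against only K84 and K130, and experiment 1 alone gives no value.

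The kidney filters plasma in the glomerulus and recovers most of the filtrate in the proximal tubule, whose cells burn fatty acids and amino acids, make glucose and ammonia, and conjugate foreign compounds. The loop of Henle, distal tubule, and collecting duct then set the concentration of the urine, and the medulla holds the salt and urea gradient this needs. A hibernator nearly stops filtering in torpor and resumes at each arousal, so both states here are states of a working, warm kidney, one in the feeding season and one before it. Each library came from a piece of frozen tissue that holds a mixture of these segments. In such bulk RNA, fewer cells of a type and less RNA per cell cannot be told apart.

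The values are regularized log (rlog) values, counts put on a log2 scale by the authors and then corrected for experiment, so a difference of 1 is a doubling. They covered 12863 genes and ran from 4.11 to 19.79, and the depth behind them is unknown. Differences below are SA minus SpD from 1 limma fit of state, sex, and experiment over the 29 animals the paper kept, ± SE, with q the Benjamini-Hochberg adjusted p over all genes, and a gene is called at q under 0.05. Because sex and experiment are in the fit, a fitted difference need not equal the difference of the plain means. Per-animal values are given in the order K138, K139, K140, and K141 for SA and K3, K6, K9, K84, and K130 for SpD.

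With all 9 animals, 1348 of the 12863 genes (10.5%) were called, 703 (5.47%) higher and 645 (5.01%) lower in SA. Without K130, 95 genes (0.739%) were called, 56 (0.435%) higher and 39 (0.303%) lower. Of these, 89 (0.692% of all genes) were also called with it, 54 higher and 35 lower in SA. At q under 0.001, 7 genes (0.0544%) passed, 5 higher and 2 lower in SA. The paper used this threshold with DESeq2 on uncorrected counts and counted more genes for this pair, so the counts are not alike. All 7 stayed under 0.05 without K130, and 1 (Maoa) stayed under 0.001. The 4 SA and 5 SpD values did not overlap for 1205 genes (9.37%), and for 1545 (12.0%) with K130 set aside. Overlap, here and below, is judged on the deposited values with no term for experiment. Whether K3, K6, and K9 overlap with SA therefore depends on the authors' correction for experiment. The values or the number of calls without K130 are therefore given below where genes were called, and the genes called both ways are described first.

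K130 differed from the other SpD animals in the markers of kidney segments. The mean of 9 proximal tubule markers was 14.99, 15.14, 15.14, and 14.88 in SA and 14.96, 14.90, 14.97, 14.23, and 13.13 in SpD, so K130 lay lowest and K84 next. The mean of 5 medulla markers was 11.17, 10.40, 9.26, and 10.46 in SA and 10.54, 10.53, 9.99, 11.40, and 12.34 in SpD, highest in K130. Slc34a1, the phosphate carrier of the proximal brush border, was 16.90, 17.01, 16.35, 16.57, and 14.53 in SpD and 16.74, 16.83, 17.05, and 16.79 in SA. The 5 principal cell markers averaged 12.86 in K130 against 11.88 to 12.24 in the other SpD animals and 11.58 to 11.98 in SA. The 4 loop of Henle markers averaged 13.12 against 11.95 to 12.67. The 2 distal convoluted tubule markers averaged 9.12 against 10.31 to 11.00. The 6 podocyte and mesangium markers averaged 10.37 in K130, 11.72 to 11.89 in the other SpD animals, and 11.55 to 11.92 in SA. By list means, K130 thus had lower glomerular, proximal tubule, and distal convoluted tubule marker levels and higher medulla, loop of Henle, and principal cell marker levels than the 4 other SpD kidneys. Not every member followed its list. The principal cell marker Hsd11b2 was lowest in K130 (14.57, others 14.98 to 15.29), and the medulla marker Akr1b1 (12.38) lay below K3 (12.82) and K6 (13.01). The part of these levels in the differences between the states was not tested. A fit with the proximal tubule mean as a further covariate called 478 genes, among them 87 of the 89 genes called with and without K130. In experiment 2 alone, where 3401 of the 12863 genes were called, all 89 had the same direction and 82 were called. With animal weights 62 of the 89 were called, with only the SA and SpD animals in the fit 55, and with those animals and without K130 1, all 89 keeping their direction in each of these fits. The 89 were chosen by fits that hold these same animals, so their direction and calls here are not independent support.

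**Figure D1:**
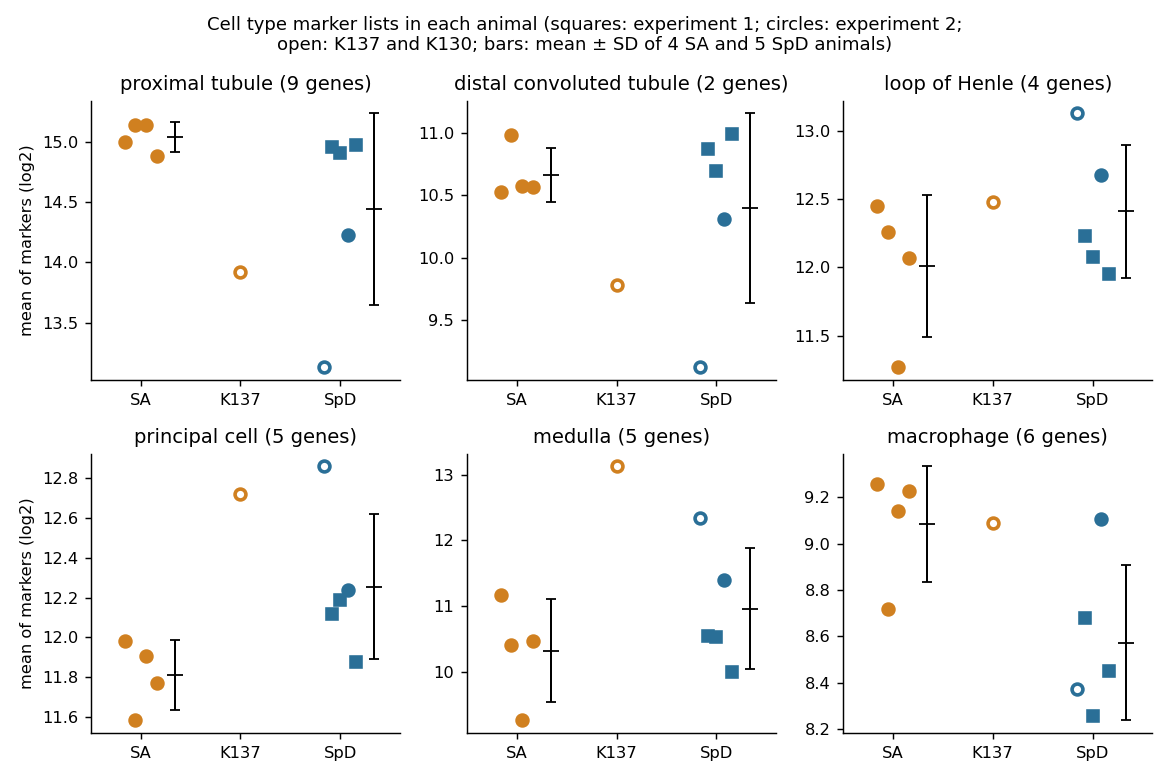
Mean rlog value (log2) of 6 cell type marker lists in each animal, with SA in orange and SpD in blue, squares for experiment 1, circles for experiment 2, open symbols for K137 and K130, and bars for mean ± SD of 4 SA and 5 SpD animals. K130 and K137 lie at 13.13 and 13.92 for the proximal tubule, below every other animal, and at 12.34 and 13.13 for the medulla, above every other animal.

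Other cell types were measured in the same way. The 6 macrophage markers averaged 8.72 to 9.26 in SA, 8.26 to 9.11 in SpD without K130, and 8.38 in K130, so the groups overlapped. Of the 6, 1 was called with K130 and 0 without it. Endothelial markers (7 genes) averaged 10.36 to 10.95 in SA and 10.55 to 10.99 in SpD without K130, with 11.30 in K130. The 7 fibroblast and stroma markers ran from 9.24 to 9.87 in SA and from 8.92 to 9.96 in SpD without K130, and the 5 smooth muscle markers from 9.81 to 10.82 and from 9.58 to 10.90. The 5 intercalated cell markers averaged 10.81 in SA, 10.65 in SpD without K130, and 10.22 in K130. The 4 markers of urothelium and papillary surface averaged 8.13, 8.52, and 8.26. Of the lymphocyte and neutrophil list, 1 of 11 genes was in the table, Cd79a of B cells, at 9.68, 10.19, 10.41, and 10.38 in SA and 10.01, 10.06, 9.71, 9.93, and 7.85 in SpD. The erythrocyte list was represented by 1 of 5 genes, and all 5 adipocyte and all 8 adrenal cortex and medulla markers were absent from the table.

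The SpD animals were placed between the torpor season and SA by projecting each animal on the line from the mean of the interbout aroused (IBA), entrance, early arousing, and later arousing animals (0) to the mean of the SA animals (1), over all genes and with each animal left out of its own mean. K130 lay at 0.252, K9 at 0.338, K3 at 0.382, K6 at 0.471, and K84 at 0.675. The SA animals lay between 0.778 and 0.931 and the 20 torpor-season animals between -0.191 and 0.301. All SpD kidneys thus lay below all 4 SA kidneys, and K130 alone of the SpD animals overlapped with the torpor season. Over the 500 most variable genes the order of the SpD animals was K130 (0.279), K9 (0.339), K6 (0.368), K3 (0.387), and K84 (0.769), and in experiment 2 alone K130 lay at 0.379 and K84 at 0.728. The highest torpor-season animal then lay at 0.201 and 0.214, below K130, so the overlap was absent in both. These positions describe 5 animals and carry no test and no term for experiment. The places of K3, K6, and K9 relative to SA therefore depend on the authors' correction for experiment.

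**Figure D2:**
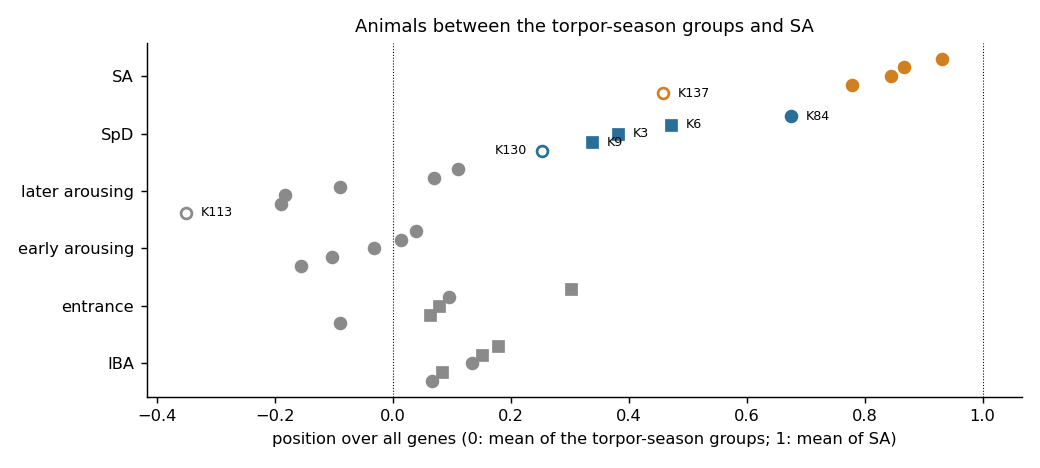
Position of each animal over 12863 genes (horizontal axis, no unit) on the line from the torpor-season mean (0) to the SA mean (1), by state on the vertical axis, with squares for experiment 1, circles for experiment 2, and open symbols for K130, K137, and K113. The 5 SpD animals spread from 0.252 to 0.675, below the 4 SA animals at 0.778 to 0.931, and K130 lies within the range of the torpor-season animals, which ends at 0.301. K137 lies at 0.458.

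The gene with the lowest q was Maoa (gene7479), which encodes monoamine oxidase A, the mitochondrial enzyme that degrades serotonin, norepinephrine, and other amines. It read 11.66, 11.66, 11.86, and 12.05 in SA and 11.05, 11.02, 11.42, 10.51, and 10.35 in SpD, so that the groups did not overlap, with K84 and K130 lowest. The SA kidneys were higher by 1.17 ± 0.13 (q = 3.27e-05), or 2.25-fold, and by 1.02 ± 0.13 without K130 (q = 0.00084). In experiment 2 alone the difference was 1.38. Next to it in amine and tryptophan breakdown stood Ido2 (gene23601), an enzyme that opens the indole ring of tryptophan, at 8.57, 9.13, 8.42, and 8.51 in SA and 7.95, 7.72, 7.48, 7.40, and 6.04 in SpD. It was 2.96-fold higher in SA (1.56 ± 0.27, q = 0.00282), and 2.14-fold without K130 (q = 0.0266), which had the lowest value by over 1 log2 unit. Of the 22 genes listed for tyrosine, tryptophan, and monoamine metabolism, which did not hold Ido2, 4 were called higher and 0 lower with K130, and all 22 fitted differences were above 0 (median 0.47, against -0.01 over all genes). Without K130, 17 were above 0 and 5 below, with a median of 0.21. Besides Maoa, the genes called with K130 were the kynurenine enzymes Kmo (1.02 ± 0.19, q = 0.00488) and Kynu (0.68 ± 0.14, q = 0.0071) and the tyrosine aminotransferase gene Tat. Tat read 11.55, 13.09, 10.69, and 9.05 in SA and 8.76, 7.88, 10.64, 6.71, and 7.09 in SpD, a wide spread in both states, with a fitted difference of 3.37 ± 0.65 (q = 0.00518). Without K130, Maoa alone was called in this list, and the q of Tat, Kmo, and Kynu were 0.0561, 0.0587, and 0.0761.

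Xdh (gene6057), encoding xanthine dehydrogenase, which makes urate from hypoxanthine and xanthine, was among the most changed genes. It read 11.84, 12.17, 12.19, and 11.49 in SA and 10.70, 10.06, 10.81, 9.30, and 9.19 in SpD, a gap with no overlap. Its difference was 2.24 ± 0.33 (q = 0.000914), or 4.73-fold, and 1.97 ± 0.36 without K130 (q = 0.0174), or 3.93-fold, and 2.68 in experiment 2 alone. The purine and urate list held 13 genes, of which 3 were called higher and 0 lower with K130, the others being Nt5e, the ectonucleotidase that makes adenosine (0.84 ± 0.21, q = 0.018; 0.40, q = 0.159 without K130), and Adk, adenosine kinase (0.45 ± 0.14, q = 0.0434; 0.21, q = 0.351 without K130). Slc16a9 (gene16824), of the monocarboxylate carrier family, read 13.45, 13.95, 13.38, and 13.62 in SA and 12.53, 12.73, 12.47, 12.62, and 12.32 in SpD. It was higher in SA by 1.18 ± 0.19 with K130 (q = 0.00216) and 1.17 ± 0.22 without it (q = 0.0212), and by 1.13 in experiment 2 alone.

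Folh1b (gene21654) and FOLH1 (gene26022), annotated as copies of the gene of glutamate carboxypeptidase II, a membrane peptidase that releases glutamate from folates and peptides, were both higher in SA. Folh1b read 10.19, 10.56, 10.68, and 10.30 in SA and 9.76, 9.997, 9.38, 9.41, and 9.19 in SpD, with no overlap (1.03 ± 0.14, q = 0.000555; 0.93 ± 0.15, q = 0.0126 without K130). FOLH1 was lower in level, 6.95 ± 0.22 (SD, n = 4) in SA and 6.41 ± 0.19 (n = 5) in SpD, and 1 SpD animal lay above the lowest SA animal (0.63, q = 0.00284; 0.60, q = 0.0266 without K130). Reads may be shared between such copies, so the 2 are not independent. LOC110598808 (gene14716), a protein-coding gene with no name in RefSeq, was among the most abundant of the called transcripts, at 17.17, 17.17, 17.48, and 16.78 in SA and 15.35, 16.57, 15.69, 15.27, and 14.69 in SpD (1.87 ± 0.26, q = 0.000578; 1.60 ± 0.27, q = 0.0126 without K130). LOC110597803 (gene5624), unmatched in the RefSeq table used, was lower in SA, at 7.04, 6.86, 7.03, and 6.93 in SA and 7.26, 7.11, 7.10, 7.60, and 7.89 in SpD, where K130 lay highest (-0.67 ± 0.09, q = 0.000555; -0.57, q = 0.0126 without K130).

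Regulatory genes changed in both directions. Etv1 (gene11779), an ETS family transcription factor, read 9.91, 9.80, 10.32, and 9.93 in SA and 9.22, 8.98, 9.61, 8.51, and 8.35 in SpD, without overlap (1.24 ± 0.17, q = 0.000578; 0.99 ± 0.17, q = 0.0126 without K130). Sox9 (gene18434), a transcription factor of tubule development and repair, read 10.26, 10.43, 10.12, and 10.41 in SA and 10.05, 9.60, 9.22, 9.65, and 9.28 in SpD (0.88 ± 0.16, q = 0.00333; 0.81 ± 0.18, q = 0.0347 without K130), with K3 just below the lowest SA animal. Lrrk2 (gene16545), a large kinase of the endolysosomal system, read 13.35, 13.15, 12.79, and 13.10 in SA and 12.23, 12.58, 12.48, 12.08, and 11.71 in SpD and was 2.07-fold higher in SA (q = 0.0019), or 1.84-fold without K130 (q = 0.0216). Lower in SA were the patterning factors Hoxd3 (-0.66 ± 0.11, q = 0.00249; -0.66, q = 0.0212 without K130), Hoxc4 (-0.50 ± 0.08, q = 0.0019; -0.49, q = 0.0174), and Osr2 (-0.46 ± 0.08, q = 0.00347; -0.45, q = 0.0302), whose values without K130 hardly moved. Osr2 read 8.35, 8.47, 8.11, and 8.35 in SA and 8.91, 8.75, 8.73, 8.76, and 8.80 in SpD, and no SA animal reached the lowest SpD animal. Also lower were Irf3, the interferon regulatory factor downstream of nucleic acid sensors (-0.51 ± 0.08, q = 0.0019; -0.42, q = 0.0216 without K130), the imprinted zinc finger gene Peg3 (-0.52 ± 0.13, q = 0.0154; -0.60, q = 0.0476), and Kmt5c, a histone H4 lysine methyltransferase (-0.47 ± 0.10, q = 0.00829; -0.50, q = 0.0395).

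Lig1 (gene19034), the ligase that joins Okazaki fragments, was the lower gene of lowest q with a symbol. It read 9.27, 9.11, 9.28, and 9.14 in SA and 9.71, 9.66, 9.55, 9.60, and 9.96 in SpD, and the groups did not overlap (-0.58 ± 0.08, q = 0.000888; -0.50 ± 0.09, q = 0.0174 without K130). Mus81, a structure-specific endonuclease of replication fork repair, was also lower (-0.46 ± 0.08, q = 0.00282; -0.40, q = 0.0332 without K130). Of the list of 31 DNA replication and cell division genes, 2 were lower (Lig1 and the helicase subunit Mcm7, -0.26, q = 0.0335) and 1 was higher (Cdkn2c, an inhibitor of cell cycle kinases, 0.67, q = 0.0204), and the list median was -0.07. Without K130 Lig1 alone stayed called. Of 33 DNA repair genes, 2 were lower with K130, the damage sensor Ddb2 (-0.79, q = 0.0175) and Rad52 of homologous recombination (-0.25, q = 0.0228), and 0 without it.

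Among membrane and cytoskeletal genes, Rgl3 (gene18602), an exchange factor for Ral GTPases, was 11.08, 10.92, 11.21, and 10.91 in SA and 12.07, 12.02, 11.71, 11.67, and 11.98 in SpD. The difference was -0.90 ± 0.15 (q = 0.00249) and -0.90 without K130 (q = 0.0212), again with no overlap. Atp1b2, a beta subunit of the sodium pump, had the most negative difference of the genes called both ways (-0.94 ± 0.21, q = 0.0118; -1.02 ± 0.25, q = 0.0498 without K130), at 8.11, 7.78, 7.60, and 7.96 in SA and 9.19, 8.49, 8.94, 8.79, and 8.56 in SpD. Kifc2, a minus-end directed kinesin, was lower (-0.82, q = 0.00574; -0.82, q = 0.0393), as was Phkg2, the catalytic subunit of phosphorylase kinase (-0.34, q = 0.0135; -0.43, q = 0.0232).

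The largest rises among the genes called both ways were those of Ccl16 and of an unnamed locus, G26914. Ccl16 (gene5243), a chemokine gene, read 7.27, 8.67, 9.64, and 8.73 in SA and 5.74, 5.84, 5.80, 4.45, and 4.55 in SpD, the SpD animals lying near the low end of the table. The fitted difference was 3.47 ± 0.66 (q = 0.00489) and 3.15 ± 0.75 without K130 (q = 0.0492). G26914 read 12.20, 14.25, 13.46, and 14.92 in SA and 10.26, 9.80, 9.68, 12.71, and 9.77 in SpD (3.45 ± 0.62, q = 0.00333; 3.22 ± 0.71, q = 0.0329 without K130). Both spread widely within SA, and the groups did not overlap for Ccl16, whereas for G26914 K84 lay above the lowest SA animal. Itih4 (gene1384), an inter-alpha-trypsin inhibitor heavy chain known as an acute-phase plasma protein, read 10.19, 8.53, 10.18, and 9.02 in SA and 8.29, 7.60, 8.39, 7.32, and 8.09 in SpD (1.78, q = 0.00488; 1.89, q = 0.0232 without K130). The 2 SA males, K138 and K140, were above the 2 SA females for Itih4, and sex was a term of the fit. Ddit4l, a relative of the stress-induced inhibitor of mTOR signaling Ddit4, was higher by 1.29 ± 0.23 (q = 0.00333), and by 1.13 without K130 (q = 0.0395). Ephb1, an ephrin receptor, was higher by 1.19 ± 0.23 (q = 0.00518; 1.27, q = 0.0259 without K130).

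**Figure D3:**
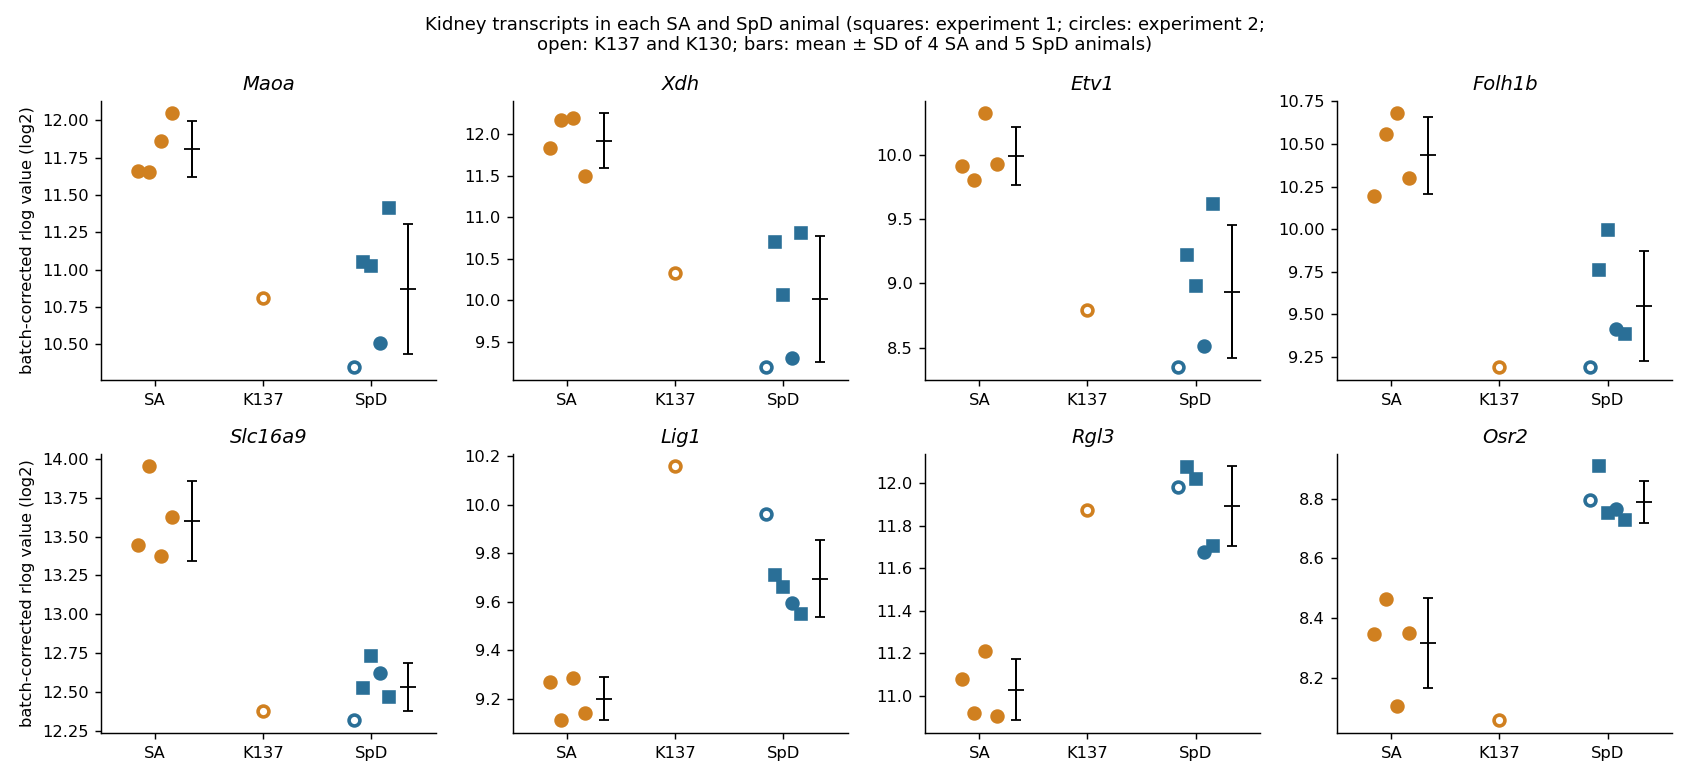
Batch-corrected rlog values (log2, vertical axes) of 8 genes in 4 SA animals (orange), K137 (open orange), and 5 SpD animals (blue, K130 open), with squares for experiment 1, circles for experiment 2, and bars for mean ± SD. In every panel the 4 SA animals lie on one side of all 5 SpD animals, as for Slc16a9, where SA was 13.60 ± 0.26 and SpD 12.53 ± 0.16, and K137 lies outside the range of the other SA animals in every panel, on the SpD side in all but that of Osr2.

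Several metabolic enzymes and carriers were also among the 54 higher genes. Agmo, which cleaves ether lipids, read 9.84, 10.15, 10.03, and 10.01 in SA and 9.49, 9.58, 9.03, 8.74, and 8.62 in SpD (1.15, q = 0.00512; 1.06, q = 0.0482 without K130). Of the sphingolipid enzymes, Sgpp1, a sphingosine-1-phosphate phosphatase, was higher by 0.71 ± 0.13 (q = 0.00325; 0.54, q = 0.0395 without K130) and Acer3, an alkaline ceramidase, by 0.45 ± 0.10 (q = 0.0121; 0.55, q = 0.0216). Pank3, the kinase at the start of coenzyme A synthesis, was 12.68 ± 0.16 in SA and 11.91 ± 0.20 in SpD (0.85, q = 0.00282; 0.73, q = 0.0329 without K130). In carbohydrate use, Galm, which interconverts the anomers of galactose and glucose, was higher by 0.63 ± 0.11 (q = 0.00282; 0.52, q = 0.0324), and Pdk3, a kinase that inhibits pyruvate dehydrogenase, by 0.58 ± 0.11 (q = 0.00347; 0.53, q = 0.0393). The mitochondrial malic enzyme Me2 read 10.19, 10.38, 10.20, and 10.30 in SA and 9.995, 9.95, 9.66, 9.93, and 9.83 in SpD (0.44, q = 0.00328; 0.45, q = 0.0216 without K130). Slc25a21, the mitochondrial carrier of 2-oxodicarboxylates, intermediates of lysine and tryptophan breakdown, was higher by 0.70 ± 0.12 (q = 0.00333; 0.59, q = 0.0395).

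In the xenobiotic metabolism list, with K130, 11 of its 41 members were higher in SA and 1 lower, and without K130 1 and 0. The gene that stayed was ADH5_like (gene9115), annotated as resembling the formaldehyde-oxidizing alcohol dehydrogenase, at 12.96, 13.26, 13.18, and 13.05 in SA and 12.69, 12.75, 12.80, 12.39, and 12.09 in SpD (0.69, q = 0.00249; 0.52, q = 0.0266). The quinone reductase gene Nqo1 (0.68, q = 0.0178; 0.49, q = 0.148 without K130) and epoxide hydrolase Ephx2 (0.63, q = 0.0191; 0.48, q = 0.145) were called with K130 only. Outside the list, a sulfotransferase locus, SULT1B1_containing_gene14495, was higher by 1.64 ± 0.27 (q = 0.00216; 1.29, q = 0.0232 without K130), and so was a carboxylesterase copy, CES2_gene2328 (0.97, q = 0.00362; 0.70, q = 0.0485). Both belong to families of like genes in which reads may have been split between copies.

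Genes of protein folding and of the endolysosomal and secretory path were also among those called both ways. Of 25 heat shock and chaperonin genes, 5 were higher and 1 lower in SA with K130 and 2 and 0 without it. Dnaja1, a co-chaperone of the Hsp70 proteins, read 13.02, 13.27, 13.03, and 12.90 in SA and 12.47, 12.78, 12.57, 12.70, and 12.72 in SpD (0.43, q = 0.0071; 0.49, q = 0.0232 without K130). Cct5, a subunit of the cytosolic chaperonin, differed by less but with a small spread, 11.82 ± 0.03 in SA and 11.60 ± 0.08 in SpD (0.24, q = 0.0123; 0.27, q = 0.0393). Hspa8, the constitutive Hsp70 (0.49, q = 0.0154; 0.47, q = 0.0812 without K130), and Hspd1, the mitochondrial chaperonin (0.36, q = 0.0136; 0.27, q = 0.117), were called with K130 only. Higher both ways were also Edem3 and Man1a1, mannosidases of glycoprotein quality control and trimming (0.41, q = 0.0465, and 0.59, q = 0.042 without K130), Vmp1 of autophagosome formation (0.40, q = 0.0212), and Ncoa4, the receptor that carries ferritin to the lysosome (0.76, q = 0.0393). Of the 37 listed lysosome and autophagy genes, 2 were called with K130, Lamp2 (0.52, q = 0.0155) and Bnip3l (0.38, q = 0.0363), and 0 without it.

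Genes of signaling and membrane traffic were also called both ways. Pik3cb, a catalytic subunit of phosphatidylinositol 3-kinase, was higher by 0.40 ± 0.09 (q = 0.0124; 0.48, q = 0.0315 without K130), and Pik3c2a, a kinase of the same family that acts in endocytosis, by 0.38 ± 0.08 (q = 0.0114; 0.41, q = 0.0448). Vamp7, a SNARE of late endosomes and lysosomes (0.30, q = 0.0294; 0.38, q = 0.0498), and Actr2, a subunit of the actin-nucleating Arp2/3 complex (0.33, q = 0.00333; 0.34, q = 0.0216), were also higher. Spred1, an inhibitor of Ras signaling, was higher by 0.52 ± 0.10 (q = 0.00488; 0.49, q = 0.0435), and Hsd17b12, an enzyme of long-chain fatty acid elongation, by 0.41 ± 0.07 (q = 0.00347; 0.33, q = 0.0472). Lower both ways were Mras, a Ras family GTPase (-0.43, q = 0.00282; -0.39, q = 0.0302 without K130), Dgki, a diacylglycerol kinase (-0.44, q = 0.0212; -0.60, q = 0.0216), and the splicing genes Clasrp (-0.53, q = 0.00518; -0.49, q = 0.0492) and Prpf40b (-0.34, q = 0.00815; -0.36, q = 0.042). Over all 54 higher genes the median difference without K130 was 0.54, over the 35 lower genes it was -0.49, and 14 higher genes and 1 lower gene differed by at least 1 log2 unit.

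The levels of these genes in the other states, all from animals of the same table, placed them in several patterns. Xdh was 11.92 ± 0.33 in SA (SD, n = 4) and 10.01 ± 0.76 in SpD, with 10.37 ± 0.55 in IBA, 10.73 ± 0.41 at entrance, 10.73 ± 0.47 early arousing, and 10.39 ± 0.36 later arousing (n = 5 each), so that SA alone was high. Slc16a9 behaved likewise, with means of 12.54 ± 0.35, 12.30 ± 0.33, 12.28 ± 0.24, and 12.34 ± 0.29 in those 4 groups beside 12.53 ± 0.16 in SpD. Lig1 was low in SA (9.20 ± 0.09) and between 9.60 ± 0.08 (later arousing) and 9.70 ± 0.16 (SpD) elsewhere.

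For Ido2, SpD lay between: 8.66 ± 0.32 in SA, 7.32 ± 0.75 in SpD (7.64 ± 0.25 without K130), and from 5.89 ± 0.28 (IBA) to 6.21 ± 0.25 (entrance) in the torpor season. K130, at 6.04, lay between those group means. Folh1b was similar, with 9.55 ± 0.32 in SpD and from 9.09 ± 0.20 (IBA) to 9.40 ± 0.10 (entrance) in the torpor season. For Etv1, Sox9, and Maoa, SpD had the lowest mean of all states. Maoa was 10.87 ± 0.44 in SpD (11.00 ± 0.37 without K130) and 11.08 ± 0.21 in IBA, the next lowest, so those means lay within their SDs. Etv1 was 8.93 ± 0.52 in SpD (9.08 ± 0.46 without K130) and 9.57 ± 0.20 at entrance, the next lowest, and reached 9.93 ± 0.15 early arousing, within the SD of SA (9.99 ± 0.23). Sox9 was 9.56 ± 0.33 in SpD and between 10.04 ± 0.18 and 10.15 ± 0.16 in the torpor season, beside 10.30 ± 0.15 in SA. Osr2 was as high in the later arousing animals (8.87 ± 0.05) as in SpD (8.79 ± 0.07), and in IBA (8.41 ± 0.08) as low as in SA (8.32 ± 0.15). These are descriptions of levels, and the order of neighboring means within their SDs is not established. The means carry no term for experiment, so comparisons between states also depend on the authors' correction for experiment.

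**Figure D4:**
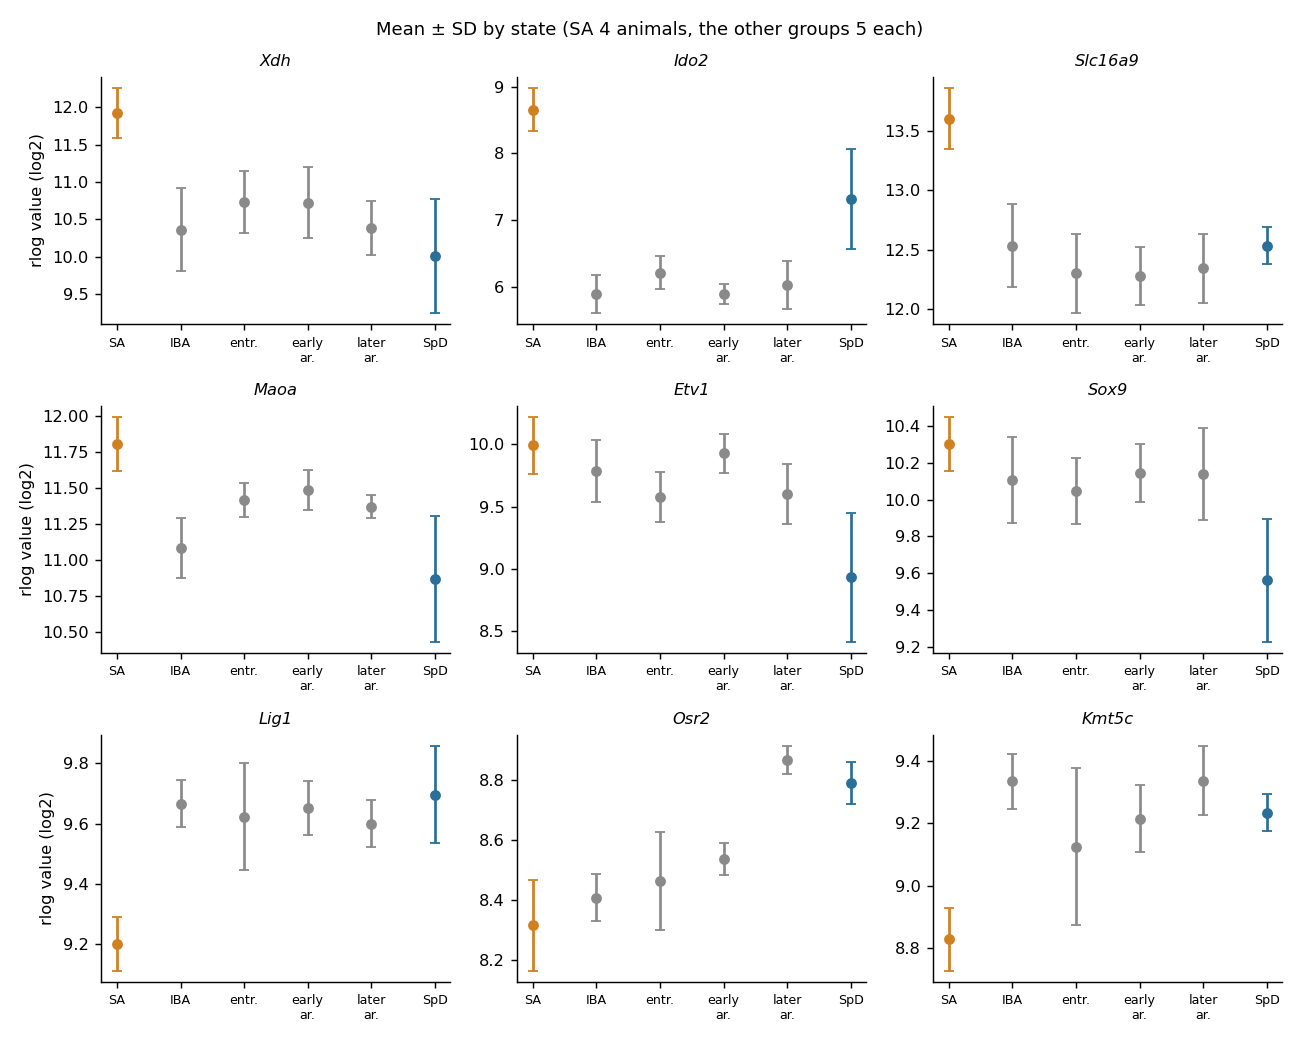
Mean ± SD of the rlog value (log2, vertical axes) of 9 genes in SA (4 animals), IBA, entrance, early arousing, later arousing, and SpD (5 animals each), from left to right. SA has the highest mean for Xdh and Slc16a9 and the lowest for Lig1 and Kmt5c (8.83 ± 0.10 in SA and 9.23 ± 0.06 in SpD, with the SD bar of entrance reaching that of SA), SpD has the lowest mean for Maoa, Etv1, and Sox9, and for Ido2 SpD lies between SA and the torpor season.

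Described by gene lists, the 1153 distinct members of 38 lists were called at about the share of all genes, 96 higher and 24 lower (10.4% against 10.5%), and without K130, 8 higher and 1 lower (0.78% against 0.739%). At least 1 member was called in 33 lists with K130 and in 8 without it.

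In proximal tubule transport, 9 of 35 solute carriers were higher and 0 lower in SA, with a list median of 0.57. Without K130, whose proximal tubule marker mean was the lowest of the SpD animals, the list had 0 calls and a median of 0.27 (q from 0.06 to 0.383 for the 9). Slc2a2, the basolateral glucose carrier, had the lowest q (1.44 ± 0.28, q = 0.00488; 1.12 ± 0.28, q = 0.06 without K130). It read 10.51, 10.25, 10.36, and 9.94 in SA and 8.82, 9.32, 9.50, 8.57, and 8.32 in SpD and did not overlap between the groups. The difference of the sodium bicarbonate carrier gene Slc4a4 went from 1.15 (q = 0.0154) to 0.65 (q = 0.148) when K130 was set aside, and that of the sulfate carrier gene Slc13a1 from 1.19 (q = 0.0253) to 0.63 (q = 0.235). Of 18 genes of endocytosis and the brush border, 2 were called with K130, among them the clathrin adaptor gene Dab2 (0.65, q = 0.0429), and 0 without it.

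In the distal nephron few genes were called. Of 27 thick limb and distal tubule genes, 1 was higher with K130 (Cul3, a ubiquitin ligase scaffold that controls salt transport, 0.17, q = 0.0214), and none was called without it (lowest q 0.0846). Of 27 collecting duct genes, the intracellular aquaporin Aqp11 was higher, at 8.96, 8.97, 8.99, and 9.12 in SA and 8.56, 8.51, 8.65, 8.39, and 8.45 in SpD (0.59 ± 0.13, q = 0.00982), and the potassium channel Kcnma1 lower (-0.65 ± 0.17, q = 0.0221). Without K130 the Aqp11 difference was 0.61 ± 0.15 with q = 0.0572, and that of Kcnma1 -0.36 ± 0.16 with q = 0.214. Of 9 medulla and osmolyte genes none was called (limma, lowest q 0.0755 for Hspa4l, 0.29). Of 17 corticosteroid response genes 1 was, the kinase Sgk3 (0.45, q = 0.00576; 0.37, q = 0.0649 without K130), and of 12 renin-angiotensin genes 1, the prorenin receptor Atp6ap2 (0.38, q = 0.0468; 0.23, q = 0.318).

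In amino acid metabolism, 9 of 35 genes of ammonia, one-carbon, and other amino acid pathways were higher with K130 and 0 lower, with a median of 0.43, and 0 were called without it, with a median of 0.19. These included Cth of cysteine synthesis (0.61, q = 0.0181), glutamate dehydrogenase Glud1 (0.46, q = 0.0278), and glutamine synthetase Glul (0.74, q = 0.0309), with q of 0.162, 0.234, and 0.177 without K130. Among 22 genes of branched-chain amino acid breakdown, 5 were higher, led by the carboxylase subunit Mccc1 (0.57, q = 0.00582; 0.38, q = 0.0655 without K130), and 1 lower, Bckdk, the kinase that inhibits the pathway's dehydrogenase (-0.36, q = 0.0124; -0.23, q = 0.123 without K130). None of them was called without K130.

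In energy metabolism, 7 of 23 TCA cycle genes were higher and 1 lower with K130. Me2 stayed called without it, whereas Fh, fumarase (0.37, q = 0.0126; 0.26, q = 0.119), and Sucla2, a succinyl-CoA ligase subunit (0.81, q = 0.0203; 0.66, q = 0.139), did not. Of 71 respiratory chain and ATP synthase genes 1 was called (UQCRC2, 0.31, q = 0.0397) and of 77 mitochondrial ribosomal protein genes 3, all higher, below the background share, and in both lists 0 were called without K130 (UQCRC2, q = 0.257). Of 35 fatty acid oxidation genes 5 were higher and 1 lower, with Vnn1, a pantetheinase, highest in difference (1.17 ± 0.27, q = 0.0124; 0.74, q = 0.122 without K130) and the fatty acid-binding protein gene Fabp3 lower (-0.71 ± 0.19, q = 0.0216; -0.37, q = 0.211). Among 10 genes listed for ketone body metabolism 2 were higher, Slc16a1 (0.96, q = 0.0272) and Slc16a12 (0.64, q = 0.0329), both of the monocarboxylate carrier family. Without K130 their q were 0.207 and 0.191. Membership of the list does not show that Slc16a12 carries ketone bodies. Of 31 genes of glucose synthesis and glycolysis 2 were higher, Pdk3 and lactate dehydrogenase Ldha (0.44, q = 0.0291; 0.41, q = 0.131 without K130).

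Of 29 genes of lipid storage and synthesis, 2 were higher, the elongase Elovl5 (0.70, q = 0.0219) and the desaturase Fads1 (1.08, q = 0.0357), and 1 lower, the lipid droplet protein gene Plin5 (-0.75, q = 0.0368). In cholesterol synthesis and uptake the receptor gene Scarb1 was lower (-0.53, q = 0.0307) and the other 21 genes were not called. All 4 lost their calls without K130, with q of 0.194, 0.257, 0.283, and 0.251. Of 29 antioxidant enzyme genes 7 were higher and 0 lower with K130, and 0 without it. Gpx3, the plasma glutathione peroxidase that the kidney secretes and the highest value in the table, read 19.48, 19.70, 19.79, and 19.56 in SA and 19.21, 19.51, 18.97, 19.02, and 17.58 in SpD, where K130 stood over 1 log2 unit below the next animal (1.01 ± 0.26, q = 0.0202; 0.55 ± 0.21, q = 0.16 without K130). Glutathione reductase Gsr moved little when K130 was set aside (0.29, q = 0.0193; 0.28, q = 0.0946).

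The list with the largest share of lower calls held 10 cold-inducible RNA-binding protein genes and CLK kinases. All 10 fitted differences were below 0 (median -0.32) and 5 were called. Without K130, 8 were below 0 and 2 above, with a median of -0.32 and 0 calls (q from 0.0594 to 0.239 for the 5). Cirbp, an RNA-binding protein induced by mild cold, read 11.98, 12.20, 12.12, and 12.20 in SA and 12.96, 12.44, 12.77, 12.20, and 12.73 in SpD, where K84 was within the SA range (-0.44 ± 0.12, q = 0.022; -0.36, q = 0.146 without K130). Rbm3, its relative, read 10.12, 10.17, 10.11, and 10.45 in SA and 11.09, 10.18, 11.46, 10.13, and 11.39 in SpD. K6 and K84 were thus within the SA range and K3, K9, and K130 above it. The Rbm3 difference was -0.66 ± 0.21 (q = 0.0438), and -0.49 without K130 (q = 0.239). In the torpor season Rbm3 lay between 11.24 ± 0.26 (IBA) and 11.64 ± 0.14 (later arousing). Srsf2, a splicing factor (-0.44, q = 0.00856; -0.44, q = 0.0594 without K130), and the kinases that phosphorylate such factors, Clk2 (-0.45, q = 0.0157; -0.42, q = 0.0896) and Clk3 (-0.24, q = 0.0405; -0.28, q = 0.0936), kept the size of their differences. Of 43 splicing factors, 5 were lower, among them Snrnp70 of the U1 particle (-0.56, q = 0.00829; -0.52, q = 0.0662), and 0 higher. These calls were 11.6% of the list, against 10.5% of all genes called in either direction and 5.01% called lower. Without K130, 0 were called.

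Clock and signaling genes were called rarely. Of 22 circadian clock genes 1 was, Hlf, a PAR bZIP output factor (1.11 ± 0.23, q = 0.00711; 0.95, q = 0.0676 without K130), at 12.31, 12.43, 12.78, and 12.44 in SA and 12.19, 11.56, 12.72, 10.78, and 11.12 in SpD, with K9 inside the SA range. Of 28 immediate early genes 2 were higher, Fos (0.93, q = 0.0109; 0.70, q = 0.0966 without K130) and the ERK phosphatase gene Dusp6 (0.59, q = 0.0143; 0.58, q = 0.0788). In the list of thyroid, sex steroid, and vitamin D signaling (24 genes), 3 were higher and 1 lower with K130 and 0 were called without it. The higher genes were Pgrmc1, a heme-binding membrane protein (0.67, q = 0.00712), Dio1, the deiodinase that activates thyroxine (0.62, q = 0.0128), and CYP24A1, which inactivates vitamin D (2.33, q = 0.0264), and the lower gene was the thyroid hormone receptor gene Thra (-0.47, q = 0.0124). Without K130 their q were 0.071, 0.12, 0.21, and 0.123. None of 30 insulin, FoxO, and growth hormone signaling genes (lowest q 0.0502 for Cited2), 41 histone and DNA modifying enzymes (lowest q 0.0503 for Ezh1), or 82 cytosolic ribosomal protein genes (lowest q 0.0886 for Rpl7l1) was called by limma. Of 37 proteasome genes, Psmd14 was higher (0.26, q = 0.0203), and of 29 genes of the unfolded protein and integrated stress response, calnexin, Canx (0.27, q = 0.0265), neither without K130 (q = 0.123 and 0.171).

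Genes of kidney injury and immunity changed in few members. Of 26 injury and repair genes, 2 were higher (Sox9 and Vcam1) and 1 lower (Prom1, a progenitor marker, -0.97, q = 0.0215; -0.62, q = 0.192 without K130). Vcam1, an adhesion molecule of tubules after injury, read 11.48, 11.44, 12.87, and 12.01 in SA and 10.97, 10.96, 10.97, 10.41, and 10.41 in SpD (1.33 ± 0.37, q = 0.025; 1.06 ± 0.41, q = 0.159 without K130). Havcr1, the injury marker of the proximal tubule, was 7.30 ± 0.50 in SA and 6.18 ± 0.48 in SpD (q = 0.106). Neither Lcn2 (10.42 ± 0.85 and 10.30 ± 0.88, q = 0.982) nor Spp1 (14.44 ± 0.24 and 14.21 ± 0.50, q = 0.763) nor Clu (13.37 ± 0.73 and 12.53 ± 0.32, q = 0.125) was called. Among 30 complement and innate immune genes, Cfi (0.89, q = 0.00721; 0.69, q = 0.0758 without K130) and C4a (2.04, q = 0.0124; 1.48, q = 0.115) were higher, and the macrophage complement genes C1qa (0.41, q = 0.21) and C1qb (0.49, q = 0.171) were not called. C4a spread over 10.44, 11.53, 9.32, 11.35, and 8.82 in SpD against 12.33, 11.84, 12.03, and 12.03 in SA. Of 37 extracellular matrix and fibrosis genes none was called (limma, lowest q 0.0761 for Lama5).

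**Figure D5:**
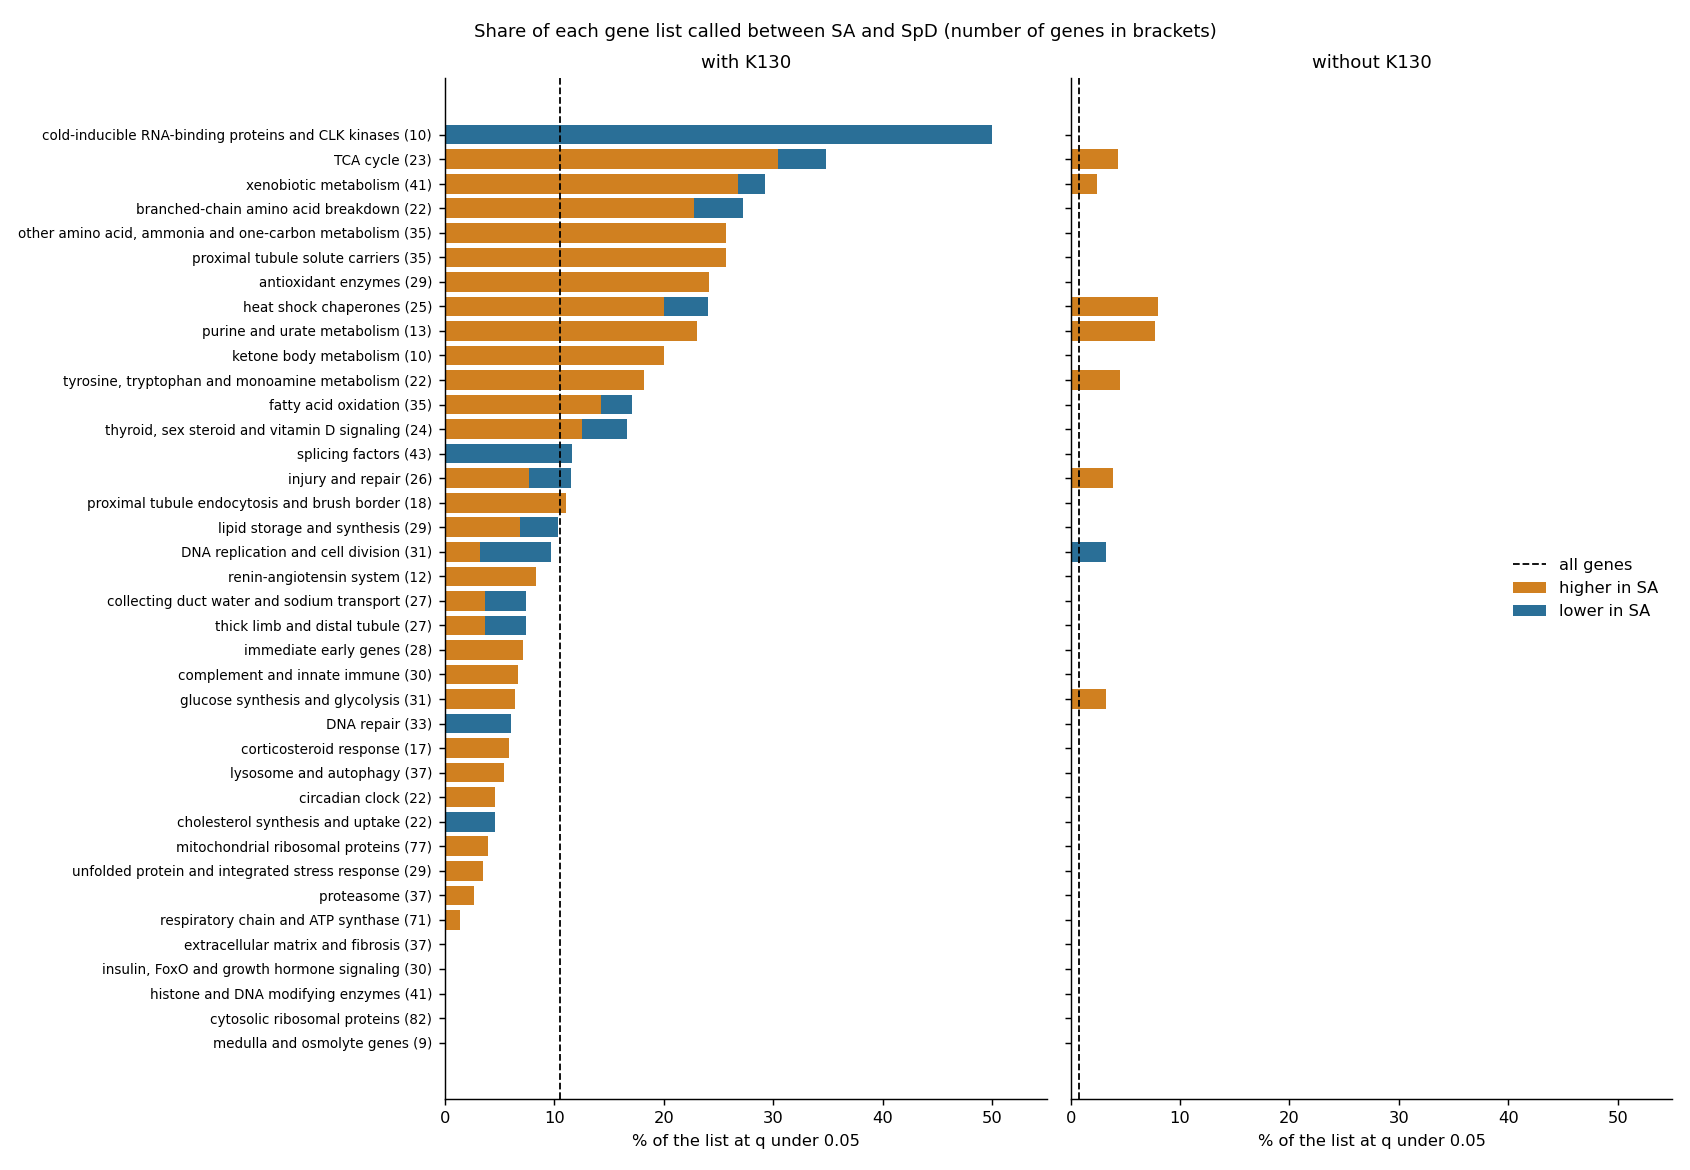
Share of each of 38 gene lists called between SA and SpD at q under 0.05 (horizontal axis, percent of list members in the table), higher in SA in orange and lower in blue, with K130 (left) and without it (right). The dashed lines mark the share of all genes, 10.5% and 0.739%, and without K130 only 8 lists keep a called member.

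Several of the largest fitted differences were not called without K130. Adcy1, a calmodulin-stimulated adenylyl cyclase, read 11.06, 10.08, 10.93, and 10.19 in SA and 8.87, 9.47, 9.21, 7.07, and 6.41 in SpD (2.69 ± 0.56, q = 0.00734; 1.85 ± 0.53, q = 0.0792 without K130). Nox4, the renal NADPH oxidase, read 12.33, 12.29, 12.23, and 11.68 in SA and 11.18, 11.01, 10.96, 9.53, and 8.84 in SpD (2.16 ± 0.43, q = 0.00574; 1.55 ± 0.41, q = 0.0662 without K130). In both genes K84 and K130, the SpD animals of experiment 2, were more than 1 log2 unit below K3, K6, and K9, which lay below every SA animal. Hapln4, a hyaluronan link protein gene, differed by 2.23 ± 0.51 (q = 0.0118; 1.67, q = 0.105 without K130), and Rbp5, a cellular retinol-binding protein gene, by 1.85 ± 0.37 (q = 0.00634; 1.36, q = 0.0699). Among the lower genes, Irx1, a homeobox factor of nephron segmentation, read 7.65, 7.57, 7.07, and 7.38 in SA and 7.71, 7.75, 7.68, 8.29, and 9.27 in SpD, and its difference shrank from -0.99 (q = 0.0205) to -0.56 (q = 0.194). Rhof, a small GTPase, shrank from -0.97 (q = 0.00582) to -0.67 (q = 0.0662), and Prdm16, a zinc finger transcription regulator, from -0.96 (q = 0.00818) to -0.77 (q = 0.0792). Cit, a kinase of cytokinesis (-0.91, q = 0.00543; -0.77, q = 0.059 without K130), Ssc5d, a scavenger receptor family gene (-0.92, q = 0.0116; -0.70, q = 0.101), and Arhgef4, a guanine nucleotide exchange factor gene (-0.87, q = 0.0443; -0.36, q = 0.378), were lower with K130 only.

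K137, the SA animal left out of the fit, did not follow the other SA animals in most of these genes. Of the 54 genes called higher both ways, its value was within the SA range for 8 and within the SpD range for 31, and for the 35 lower genes within the SA range for 6 and within the SpD range for 16. Maoa read 10.81 in K137, Xdh 10.32, Etv1 8.79, Slc16a9 12.38, and Lrrk2 11.81, all below every other SA animal. Lig1 read 10.16 and Rgl3 11.87, above them all. Galm (12.59) and Osr2 (8.06), by contrast, lay beyond the other SA animals on the side away from SpD. With K137 and K113 returned to the fit, 125 genes were called, among them 37 of the 89. Its proximal tubule markers (13.92) were below and its medulla markers (13.13) above those of the other SA animals.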

How the data were processed

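Kidney RNA of 31 animals was measured by poly(A) RNA-Seq. After adapter trimming (cutadapt) and removal of mitochondrial reads (HISAT2), the authors estimated counts per gene with Salmon and deposited batch-corrected rlog values on a log2 scale from DESeq2 and limma. In the deposited table, the means of the 2 sequencing experiments are equal for each gene to within rounding, although all SA animals belong to experiment 2, so experiment stays a term in every main fit. Depth is unknown. Here limma 3.58.1 (R 4.3.3) was fitted to 29 animals with state, sex, and experiment, an intensity trend, and Benjamini-Hochberg adjustment over 12863 genes, and was tested on simulated data first. The animals and gene lists were chosen with earlier results of these data known. Named genes are those at q under 0.001, the 10 largest increases and decreases without overlap, up to 4 called members of each list by q, cell type markers, and 8 injury and immune genes, of which the text gives a selection. Other genes called both with and without K130, and Rbm3, were chosen after their values were seen. The fit of the 2 groups without K130 was also added after seeing the data. Promoter motifs were not analysed here, and some called genes are not reported here. Of the 89 genes called both ways, 76 matched RefSeq (mIctTri1.hap1) by symbol or number, used for names only. P-values measure the spread between separate animals.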

Additional observations from a re-analysis of the deposited data

Results flagged for a closer look

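In 20 of 280 groups of values, the most extreme animal stood off from the rest of its state beyond Dixon's 95% critical value, and chance alone marks about 1 in 20 such groups. In 10 of them the animal was K130, whose segment markers also differed from those of the other SpD animals. The part of this in the values was not tested. Among SA animals, K141 was lowest for Canx at 14.45 (others 14.50 to 14.51), and Nox4 at 11.68 (others 12.23 to 12.33). Among SA animals, K141 was highest for Aqp11 at 9.12 (others 8.96 to 8.99). Among SpD animals, K130 was lowest for Cd79a at 7.85 (others 9.71 to 10.06), Dio1 at 11.28 (others 11.76 to 11.94), Gpx3 at 17.58 (others 18.97 to 19.51), Ido2 at 6.04 (others 7.40 to 7.95), and Slc34a1 at 14.53 (others 16.35 to 17.01). Among SpD animals, K130 was highest for Arhgef4 at 10.06 (others 8.44 to 8.70), Ddb2 at 10.56 (others 9.30 to 9.59), Kcnma1 at 10.47 (others 9.46 to 9.71), Prdm16 at 10.51 (others 9.67 to 9.88), and Rhof at 12.08 (others 10.78 to 11.10). Among SpD animals, K3 was lowest for Edem3 at 10.24 (others 10.42 to 10.44). Among SpD animals, K84 was lowest for Prpf40b at 10.54 (others 10.70 to 10.76). Among SpD animals, K84 was highest for G26914 at 12.71 (others 9.68 to 10.26). Among SA animals, K139 was lowest for Lcn2 at 9.16 (others 10.72 to 11.02). Among SA animals, K139 was highest for Glul at 15.82 (others 15.03 to 15.11), and Sgk3 at 10.44 (others 10.19 to 10.21). Among SpD animals, K9 was highest for Spred1 at 9.69 (others 9.25 to 9.35).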

How the results depend on the processing

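No paired analysis was possible because replicate numbers only name animals in accession order. The main fit called 1348 genes at q under 0.05. The count was 125 with all 31 animals and 108 with animal weights, all among the 1348. It was 880 with no term for experiment, of which 775 were among the 1348. In experiment 2 only (where SpD was K84 and K130) it was 3401, of which 1220 were among the 1348. With the proximal tubule marker covariate 478 were called, 297 of them among the 1348. At a threshold of 0.01 the main fit called 182. Leaving out 1 animal gave 95 (without K130) to 1503, with 695 without K139 and 683 without K140. At q under 0.001 the main fit called 7 genes. The count was 0 with all 31 animals, with no term for experiment, and with SA and SpD animals only. It was 1 with animal weights or the marker covariate, and 100 in experiment 2 only. With 1 animal left out it ran from 1 to 23, with 23 without K84 and 1 without K130, K139, or K140. It was 2 without K138, 3 without K141, and 4 without K6. With SA and SpD animals only and without K130, 8 and 0 genes passed, a setting chosen after the data were seen. At no adjustment (limma p under 0.05), 3741 genes passed with K130 and 2450 without. Centering each animal on its median moved the higher share of calls from 52.2% to 59.5%. The median position of the 5 SpD animals was 0.382. In experiment 2 only it was 0.553, but over K84 and K130 alone, which moved from 0.675 to 0.728 and from 0.252 to 0.379. Among the genes named above, Akr1b1, C1qa, C1qb, Lcn2, Slc34a1, and Spp1 changed sign in at least 1 setting, none of them called in either fit, and no other did. Several cell type markers used only in list means also changed sign. Among these, Dcn kept its sign in 14 of 21 settings, Foxi1 in 16, and Lrp2 in 18. Depth is unknown, and the number of animals limits precision.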
